A study of Rattus norvegicus with 12 samples.

Results

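The genes described here are 10 named genes of the myosin light chains and their kinases, taken by symbol and not the whole family: Myl1, Myl2, Myl3, Myl4, Myl6, Myl7, Myl9, Mylk, Mylk3 and Mylk4. Of these, 9 had an entry among the 18469 genes of the deposited tables, and Mylk4 had none by symbol or by NCBI Gene identifier and is not analysed here. RNA was sequenced from neonatal rat ventricular myocytes (NRVMs), heart muscle cells of newborn Sprague-Dawley rats grown in culture. The 12 libraries formed 4 groups of 3 biological replicates. Cells of the siNeg group carried a negative control siRNA, and those of the siSlc25a26 group carried an siRNA against Slc25a26, which encodes the mitochondrial carrier of S-adenosylmethionine. In the siNeg.PE and siSlc25a26.PE groups, phenylephrine (PE), an alpha-adrenergic agonist that makes cardiomyocytes grow, was added 12 h after the respective transfection and left on for 36 h.

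Each myosin heavy chain head carries an essential and a regulatory light chain on its lever arm. Muscle types use different light chain genes, and in the heart the atria and ventricles each have their own pair. Phosphorylation of the regulatory light chain by a light chain kinase, reversed by myosin phosphatase, tunes force in cardiac muscle and switches contraction on in smooth muscle and non-muscle cells. Myl2 (regulatory) and Myl3 (essential) are the ventricular pair, and Myl7 (regulatory) and Myl4 (essential) the atrial pair, Myl4 being also a light chain of embryonic muscle. Myl1 is the essential light chain of fast skeletal muscle, while Myl6 (essential) and Myl9 (regulatory) serve smooth muscle and non-muscle myosin. Mylk3 encodes the cardiac light chain kinase and Mylk the kinase of smooth muscle and non-muscle cells.

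Library totals ranged from 24770972 to 28709049 estimated counts, so that 3 counts corresponded to 0.0992 to 0.120 counts-per-million units (CPM). The targeted gene was measured first. Slc25a26 stood at 29.3 to 33.2 CPM in siNeg and at 14.7 to 15.8 CPM in siSlc25a26, a log2 fold change of -1.08 (adjusted p = 1.08e-05, edgeR's quasi-likelihood test), but under PE its level was 86.2 to 113 CPM in siNeg.PE and 98.8 to 106 CPM in siSlc25a26.PE, with a log2 fold change of -0.0062 (adjusted p = 0.969). The name siSlc25a26.PE therefore stands below for libraries so labelled, in which Slc25a26 was not lower than in siNeg.PE by the test. Transcripts of 12 interferon-stimulated genes, a list added after the values were seen, summed to 208 to 241 CPM in siNeg, 149 to 167 in siNeg.PE, 8287 to 9006 in siSlc25a26 and 4911 to 5475 in siSlc25a26.PE. Their part in any difference between the siRNAs was not tested. The 14 cardiomyocyte markers were all detected in every group, with a summed level of 23864 to 33194 CPM, and the 10 fibroblast markers summed to 8780 to 23670 CPM, so the cultures held RNA of both kinds. In such bulk samples, fewer cells of a type and less RNA per cell cannot be told apart.

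FPKM values, which are scaled for transcript length, allowed the genes to be ranked. Myl3 was the highest in all 4 groups, at 3939 ± 364 FPKM in siNeg (SD, n = 3). Myl2, Myl6 and Myl9 followed there at 1050 ± 83.3, 1033 ± 89.7 and 1022 ± 87.6 FPKM, and their libraries overlapped, so no order among these 3 genes was detectable in siNeg. Below them lay Myl4 at 142 ± 4.98, Mylk3 at 98.0 ± 5.59, Myl7 at 58.2 ± 2.07, Mylk at 9.91 ± 0.261 and Myl1 at 0.810 ± 0.522 FPKM, with no overlap between neighbours. The ventricular pair thus stood far above the atrial pair in these ventricular cells. In siNeg.PE and siSlc25a26.PE, Myl9 ranked above Myl6 without overlap, and in siSlc25a26 Mylk3, at 115 ± 3.25 FPKM, ranked above Myl4, at 79.2 ± 2.86 FPKM. Together the 7 light chain genes took 1.15 to 1.27% of the summed FPKM in siNeg, 1.57 to 1.81% in siNeg.PE, 0.951 to 0.983% in siSlc25a26 and 1.52 to 1.59% in siSlc25a26.PE. The share was higher in every PE library than in every library without PE.

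**Figure D1:**
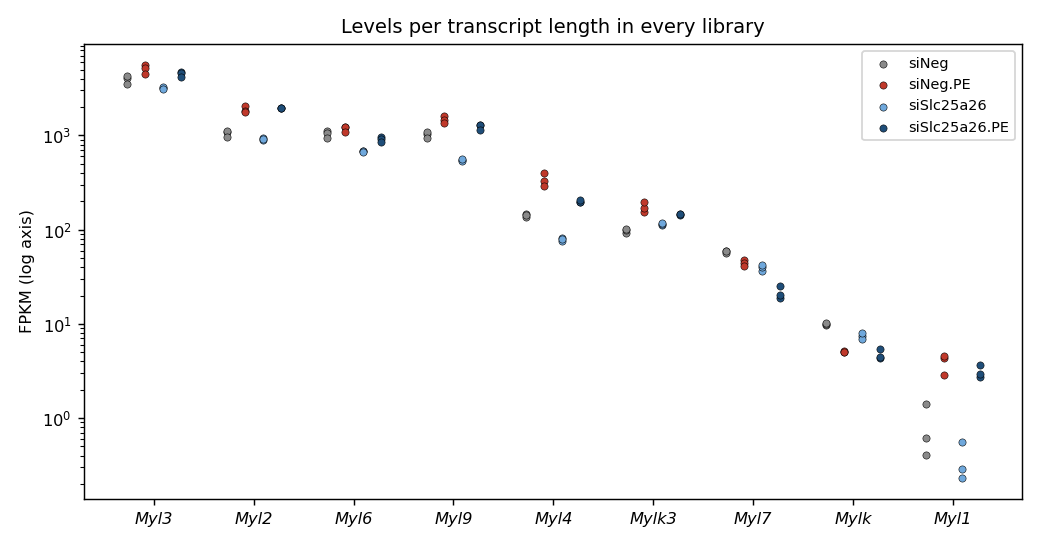
Level of each gene per transcript length (FPKM, log axis) in every library, coloured by group, with genes ordered by their mean. Myl3 is at the top in every group and Myl1 at the bottom, and the PE libraries of Mylk lie below its libraries without PE.

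The first comparison asked which of these genes responded to PE in siNeg cells. A gene was called when its fold change exceeded 1.5 in either direction with an adjusted p under 0.05. Of the 9 genes, 4 rose (Myl1, Myl2, Myl4 and Mylk3), and 12.4% of all 13719 genes tested were called higher. Mylk was the 1 gene called lower, as were 8.24% of all genes. At an adjusted p under 0.05 and any fold, 6 of the 9 were higher and 2 lower, against 25.2% and 24.3% of all genes. The median log2 fold change of the 9 was 0.57, against 0.00016 over all genes. The groups did not overlap for 8 of the 9, as for 58.6% of all genes.

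In the libraries transfected with siSlc25a26, 6 of the 9 genes rose under PE (Myl1, Myl2, Myl3, Myl4, Myl6 and Myl9) and Myl7 fell, where 10.1% of all 13776 genes tested were called higher and 10.4% lower. The balance of calls over all genes depended on the unit and its scaling. Of the calls, 49.2% were in the higher direction on counts scaled by TMM factors, and 27.4% or 27.1% on FPKM without such factors. At any fold 7 of the 9 were higher and 2 lower, against 26.4% and 26% of all genes. Their median log2 fold change was 0.68 and that of all genes -0.0036. All 9 genes had groups that did not overlap, as had 61% of all genes.

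The siRNA comparison without PE asked what the Slc25a26 siRNA did to unstimulated cells. Myl4, Myl6, Myl7 and Myl9 fell, where 7.2% of all 13829 genes tested were called lower and 8.92% higher. By edgeR, DESeq2 and limma alike 0 of the 9 were called higher, with 1 at an unadjusted p under 0.05. At any fold 7 were lower and 1 higher, against 21.7% and 23.3% of all genes. The median log2 fold change of the 9 was -0.61 and that of all genes 0.015. The groups did not overlap for 8 of the 9, as for 56.9% of all genes. Under PE, Myl4 and Myl7 were the 2 genes lower in siSlc25a26.PE than in siNeg.PE, where 8.1% of all 13671 genes tested were called lower and 7.71% higher. By edgeR, DESeq2 and limma 0 were called higher, also with 0 at an unadjusted p under 0.05. At any fold 3 were lower, against 20.1% of all genes in each direction. For 4 of the 9 the groups did not overlap, as for 52% of all genes. These 4 comparisons share groups of libraries and are not independent of each other.

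The fifth test asked whether the PE response itself differed between the siRNAs, with an interaction term over all 12 libraries. Myl9 was the 1 gene of the 9 called, with a larger increase in siSlc25a26, where 2.16% of all 14097 genes tested were called in that direction and 3.34% in the opposite one. Without a fold threshold 2 genes were higher (Myl2 and Myl9) and Mylk3 was lower, against 5.48% and 5.73% of all genes. On FPKM the balance of calls over all genes moved from 39.3% in the higher direction to 23.4% or 22.1%.

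**Figure D2:**
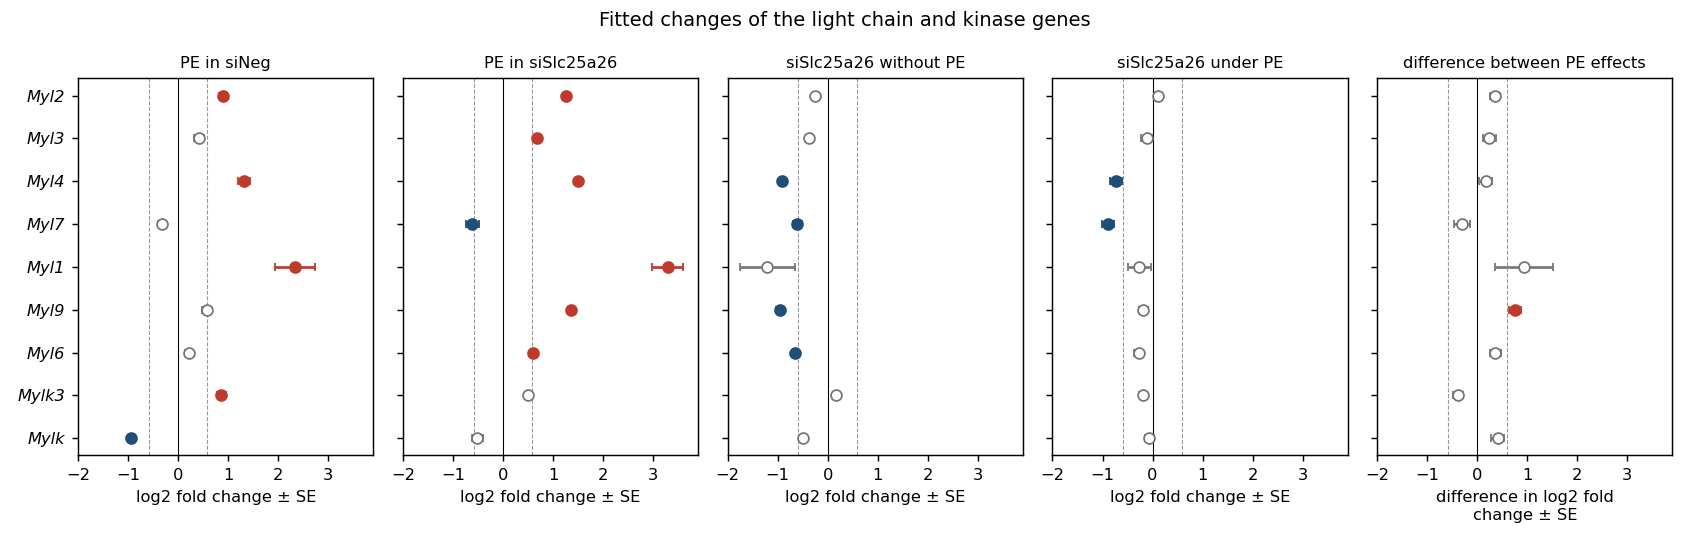
Fitted log2 fold change ± SE of each gene in the 4 comparisons of 3 against 3 libraries, and the difference between the PE effects over 12 libraries (siSlc25a26 minus siNeg). Dashed lines mark a 1.5-fold change, filled red and blue points are genes called higher and lower, and open points are not called: Mylk3 and Mylk lie on opposite sides of 0 in both PE comparisons, and so do Myl4 and Myl7.

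Of the ventricular pair, Myl2 encodes the regulatory light chain that Mylk3 phosphorylates. It measured 590, 606 and 523 CPM in siNeg and 1194, 1052 and 986 CPM in siNeg.PE. All PE libraries lay above all libraries without PE, and Myl2 rose by a log2 fold change of 0.90 (SE 0.0838, adjusted p = 0.00012, edgeR's quasi-likelihood test). In siSlc25a26 it measured 477, 500 and 491 CPM, and in siSlc25a26.PE 1193, 1165 and 1150 CPM, a log2 fold change of 1.27 (SE 0.045, adjusted p = 1.32e-07). The replicates of this pair of groups were tight and far apart. The difference between both PE effects was 0.35 (SE 0.101, adjusted p = 0.0445), under the fold threshold. Without PE the Slc25a26 siRNA gave a log2 fold change of -0.25 (SE 0.0653, adjusted p = 0.0122), also under the fold threshold, and with PE 0.11 (SE 0.083, adjusted p = 0.336) with overlapping groups.

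Myl3, the essential light chain of the ventricle, measured 3274, 3416 and 2863 CPM in siNeg and 4811, 4387 and 3676 CPM in siNeg.PE. Its groups did not overlap, but the log2 fold change of 0.42 (SE 0.104, adjusted p = 0.0113) stayed under the fold threshold. Values in siSlc25a26 were 2531, 2526 and 2465 CPM, and those in siSlc25a26.PE 4241, 4051 and 3684 CPM. Here Myl3 rose, with a log2 fold change of 0.68 (SE 0.0556, adjusted p = 1.41e-05). On FPKM the value was 0.50, under the fold threshold. The difference between the PE effects, 0.24 (SE 0.132, adjusted p = 0.272), did not pass the test. The siRNA gave -0.37 (SE 0.0721, adjusted p = 0.00315) without PE and -0.12 (SE 0.108, adjusted p = 0.426) under PE, neither past the fold threshold.

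**Figure D3:**
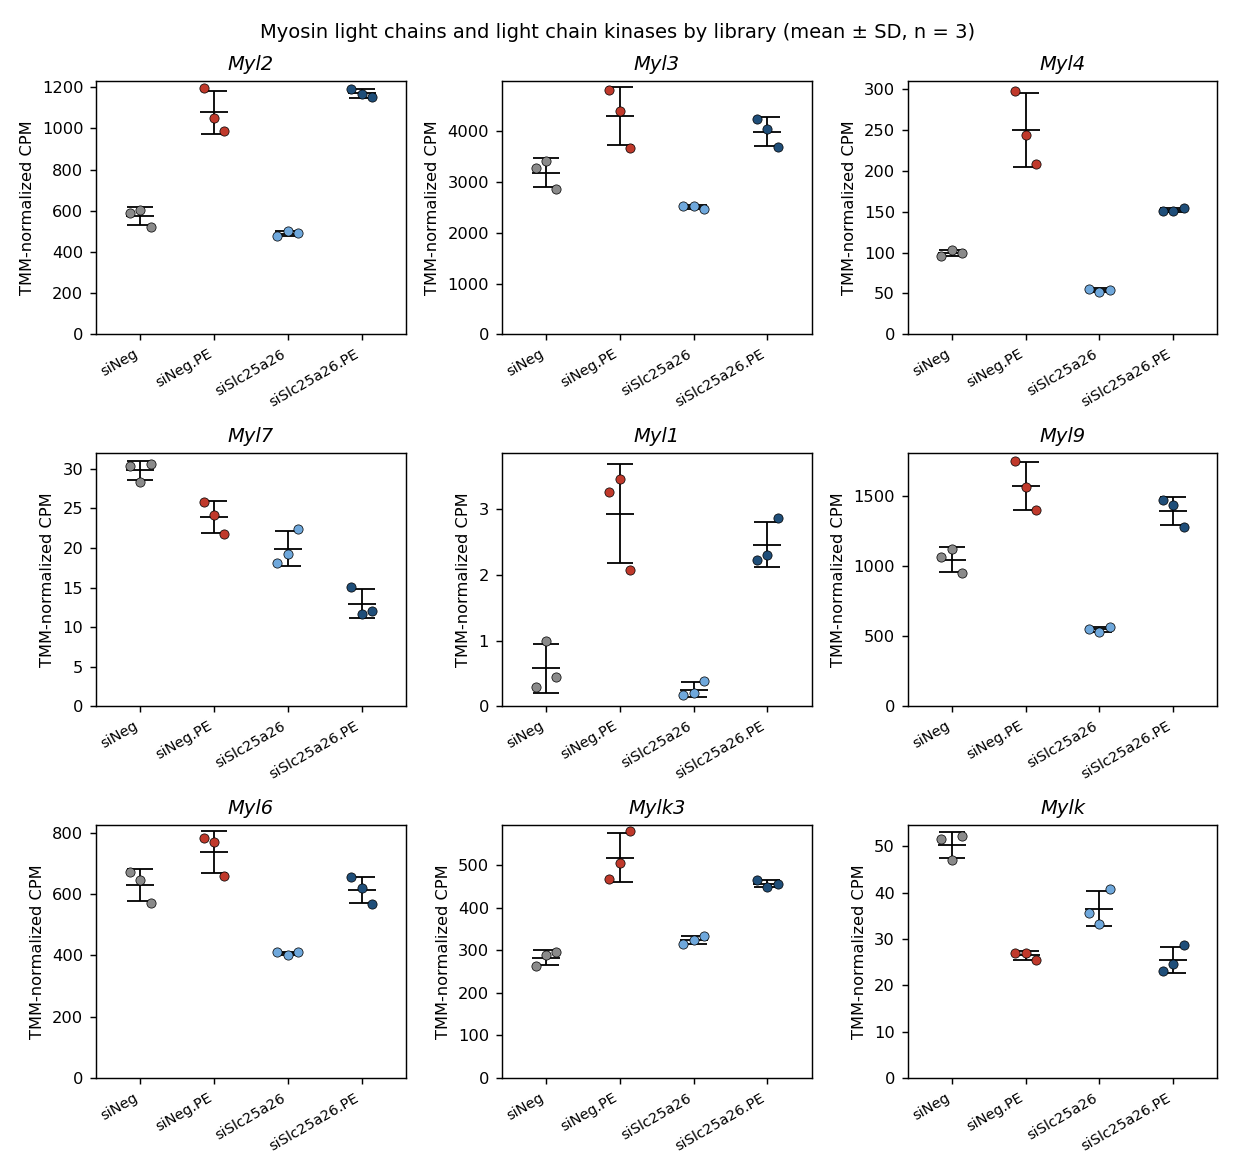
Level of the 9 genes in every library (TMM-normalized CPM, linear axes from 0), with points for libraries and bars for the mean ± SD of the 3 libraries of a group. Myl2 and Myl4 are higher in every PE library than in every library without PE, Mylk is lower, and Myl7 is lowest in siSlc25a26.PE, at 11.7 to 15.1 CPM.

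The atrial pair had fitted changes of opposite sign with PE. Myl4, the essential light chain of atrial and embryonic muscle, measured 95.8, 103 and 99.9 CPM in siNeg and 297, 244 and 208 CPM in siNeg.PE. The lowest PE library lay far above the highest siNeg library, and Myl4 rose by a log2 fold change of 1.31 (SE 0.112, adjusted p = 7.66e-05, edgeR's quasi-likelihood test). In siSlc25a26 it measured 55.7, 51.6 and 54.8 CPM, and in siSlc25a26.PE 151, 151 and 155 CPM, a log2 fold change of 1.5 (SE 0.0521, adjusted p = 1.28e-07). The groups stood in the order siSlc25a26, siNeg, siSlc25a26.PE and siNeg.PE with no overlap between neighbours. Myl4 fell with the Slc25a26 siRNA by 0.91 on the log2 scale without PE (SE 0.0552, adjusted p = 2.96e-06) and by 0.72 under PE (SE 0.12, adjusted p = 0.00155). Without siNeg.PE replicate 1, the highest library, the value under PE was -0.57, under the fold threshold. The difference between the PE effects was 0.17 (SE 0.137, adjusted p = 0.477).

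Myl7, the regulatory light chain of the atrium, measured 30.3, 28.4 and 30.7 CPM in siNeg and 25.8, 24.2 and 21.8 CPM in siNeg.PE. Every PE library was lower, with a log2 fold change of -0.33 (SE 0.0782, adjusted p = 0.00909) that stayed under the fold threshold. Myl7 was at 18.1, 19.2 and 22.4 CPM in siSlc25a26, and in siSlc25a26.PE at 15.1, 11.7 and 12.1 CPM, where it fell by 0.61 on the log2 scale (SE 0.121, adjusted p = 0.00263). This call was lost without siSlc25a26 replicate 3 (-0.52) and without siSlc25a26.PE replicate 2 (-0.54) or 3 (-0.57). The Slc25a26 siRNA went with lower Myl7 both without PE, by -0.61 (SE 0.0916, adjusted p = 0.000817), and under PE, by -0.89 (SE 0.118, adjusted p = 0.000459). The first of these calls lay close to the fold threshold and was lost without siSlc25a26 replicate 1 (-0.54) or 2 (-0.58), on FPKM (-0.55 with a pseudocount of 1 and -0.56 with 0.1) and with all 12 libraries in 1 fit (-0.58). The difference between the PE effects was -0.30 (SE 0.153, adjusted p = 0.23). The transcript length that the authors' counts and FPKM imply for Myl7 was 524 to 532 bases in siNeg and siNeg.PE, 505 to 555 in siSlc25a26 and 557 to 585 in siSlc25a26.PE, and the part of this shift in its FPKM was not tested.

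The balance between atrial and ventricular isoforms was expressed within each library as a share of FPKM. Myl7 made up 5.17, 4.79 and 5.89% of the regulatory pair Myl2 and Myl7 in siNeg, 2.27, 2.37 and 2.28% in siNeg.PE, 3.89, 4.04 and 4.38% in siSlc25a26, and 1.25, 0.949 and 1.04% in siSlc25a26.PE. PE libraries were lower with each siRNA, by 2.98 and 3.02 percentage points of the group means. For the essential pair Myl3 and Myl4 the share of Myl4 was 3.27, 3.35 and 3.87% in siNeg, 6.65, 6.02 and 6.13% in siNeg.PE, 2.48, 2.30 and 2.51% in siSlc25a26, and 3.96, 4.13 and 4.64% in siSlc25a26.PE. PE libraries were here higher with each siRNA, by 2.77 and 1.81 points, and siSlc25a26 libraries were lower than siNeg libraries by 1.06 points without PE and 2.02 points under PE. The share of Myl7 was also lower with the Slc25a26 siRNA, by 1.18 points without PE and 1.23 points under PE. In all 8 of these comparisons the groups did not overlap, and the two-sided exact permutation test gave p = 0.1, the smallest p that 3 against 3 libraries allow.

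**Figure D4:**
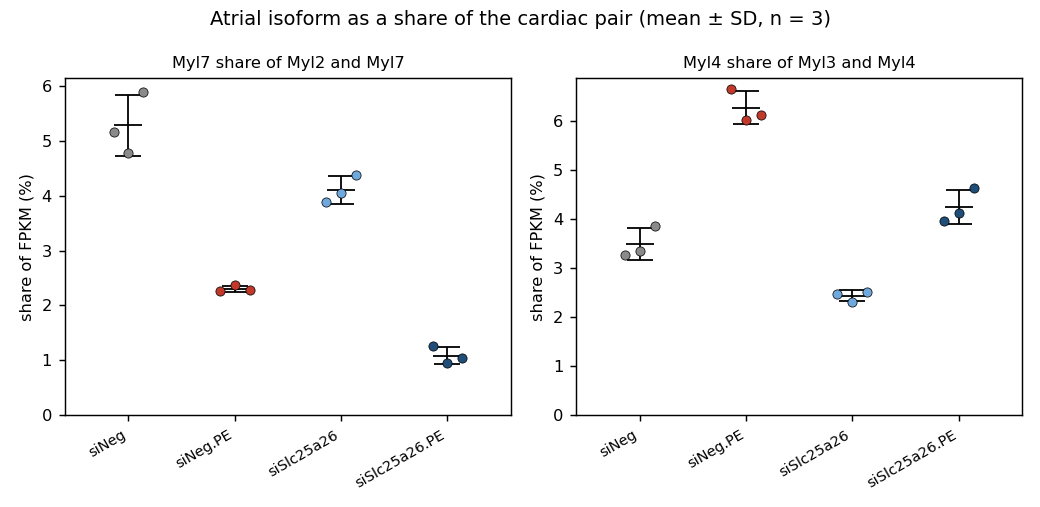
Share of the atrial isoform in the regulatory pair (Myl7 of Myl2 and Myl7, left) and in the essential pair (Myl4 of Myl3 and Myl4, right), in percent of their summed FPKM, with points for libraries and bars for the mean ± SD of 3 libraries. With PE the group mean goes from 5.28 to 2.31% on the left and from 3.49 to 6.27% on the right in siNeg.

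Myl1, the essential light chain of fast skeletal muscle, was the rarest of the 9. It measured 0.290, 0.992 and 0.443 CPM in siNeg, which are 8, 26 and 12 counts, and 3.26, 3.46 and 2.08 CPM in siNeg.PE, or 82, 89 and 52 counts. The highest siNeg library lay below the lowest siNeg.PE library, and Myl1 rose with a log2 fold change of 2.34 (SE 0.396, adjusted p = 0.00197, edgeR's quasi-likelihood test). Its levels in siSlc25a26 were 0.170, 0.198 and 0.382 CPM (5, 6 and 11 counts) and in siSlc25a26.PE 2.22, 2.30 and 2.86 CPM (57, 58 and 74 counts), a log2 fold change of 3.29 (SE 0.311, adjusted p = 3.33e-05). Counts this low leave wide errors, and the difference between the PE effects, 0.93 (SE 0.577), had an adjusted p of 0.332. The siRNA gave -1.21 without PE (SE 0.551, adjusted p = 0.103) and -0.26 under PE (SE 0.229, adjusted p = 0.399), both with overlapping groups.

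Myl9, the regulatory light chain of smooth muscle and non-muscle myosin, was the gene of the 9 whose PE effect differed between the siRNAs past both thresholds. It measured 1063, 1124 and 952 CPM in siNeg and 1747, 1567 and 1400 CPM in siNeg.PE. All PE libraries were higher, with a log2 fold change of 0.57 (SE 0.0904, adjusted p = 0.00142, edgeR's quasi-likelihood test), a 1.49-fold difference just short of the fold threshold. It crossed that threshold with all 12 libraries in 1 fit (0.59) and without siNeg replicate 1 (0.60), siNeg replicate 2 (0.63) or siNeg.PE replicate 3 (0.64). In siSlc25a26 Myl9 measured 552, 528 and 563 CPM and in siSlc25a26.PE 1470, 1432 and 1277 CPM. Its rise of 1.36 on the log2 scale (SE 0.0601, adjusted p = 4.03e-07) exceeded that in siNeg by 0.76 (SE 0.12, adjusted p = 0.00218). Without PE, where the groups were far apart, Myl9 fell by 0.96 on the log2 scale with the Slc25a26 siRNA (SE 0.0709, adjusted p = 1.08e-05). Under PE the fitted value was -0.18 (SE 0.0959, adjusted p = 0.159) and the groups overlapped.

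Myl6, the essential light chain that pairs with it, measured 672, 646 and 572 CPM in siNeg and 785, 771 and 661 CPM in siNeg.PE. The groups overlapped, and the log2 fold change was 0.22 (SE 0.0836, adjusted p = 0.0604). In siSlc25a26 it measured 410, 402 and 412 CPM and in siSlc25a26.PE 655, 619 and 569 CPM, a log2 fold change of 0.60 (SE 0.0557, adjusted p = 3.03e-05). This rise was close to the fold threshold and fell short of it without siSlc25a26.PE replicate 1 (0.56) and on FPKM (0.42). Without PE Myl6 fell by 0.65 on the log2 scale with the Slc25a26 siRNA (SE 0.0668, adjusted p = 8.73e-05), and under PE the value was -0.28 (SE 0.0856, adjusted p = 0.0294), under the fold threshold. The difference between the PE effects, 0.36 (SE 0.11, adjusted p = 0.0528), did not pass the test.

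Genes of smooth muscle and myofibroblasts were measured beside Myl9 and Mylk. Of 16 such genes, 2 rose with PE in siNeg, Cnn1 by 1.58 and Rgs5 by 0.74 on the log2 scale. There 8 fell (Acta2, Tagln, Smtn, Lmod1, Myh11, Actg2, Pdgfrb and Notch3). With PE in siSlc25a26, 6 rose (Cnn1, by 3.35, and Synpo2, Tpm1, Tpm2, Rgs5 and Mcam) and 3 fell (Tagln, Smtn and Lmod1). Of all genes, 12.4% were called higher and 8.24% lower with PE in siNeg, and 10.1% and 10.4% with PE in siSlc25a26. With the siRNA 8 fell without PE and 4 under PE, and edgeR called 0 higher in either, with 0 and 5 higher at an unadjusted p under 0.05. Of all genes, 7.2% were called lower and 8.92% higher with the siRNA without PE, and 8.1% and 7.71% under PE. Acta2, the smooth muscle actin, had log2 fold changes of -0.86 with PE in siNeg, where Myl9 had 0.57 and Mylk -0.94, and of -0.99 with the siRNA without PE, where Myl9 had -0.96 and Mylk -0.49. With PE in siSlc25a26 Acta2 had 0.041 (adjusted p = 0.675), where Myl9 had 1.36, and under PE the siRNA gave Acta2 -0.098 (adjusted p = 0.518). The PE effect on Acta2 differed between the siRNAs by 0.88 (adjusted p = 0.00233), in the direction of the 0.76 of Myl9. In that interaction test 5 of the 16 genes were called with a higher PE effect in siSlc25a26 (Acta2, Cnn1, Cnn2, Tpm2 and Notch3), beside the 2.16% of all genes given above, and edgeR called 0 lower, also with 0 lower at an unadjusted p under 0.05. The median difference of the 16 was 0.49, against -0.045 over all genes. Tpm1, a tropomyosin also abundant in cardiomyocytes, made up most of the summed level of this list, with 5153 to 5739 CPM in siNeg, 6789 to 8019 in siNeg.PE, 4647 to 5094 in siSlc25a26 and 8223 to 8928 in siSlc25a26.PE. The other 15 genes summed to 4560 to 4906 CPM in siNeg, 2755 to 3331 in siNeg.PE, 2638 to 2982 in siSlc25a26 and 3165 to 3256 in siSlc25a26.PE, so they were highest in siNeg. The 10 fibroblast markers summed to 21537 to 23670 CPM in siNeg, 11729 to 12183 in siNeg.PE, 12559 to 14092 in siSlc25a26 and 8780 to 9578 in siSlc25a26.PE, and of them 5 fell with PE in siNeg and 1 in siSlc25a26. With the Slc25a26 siRNA 6 of the 10 fell without PE, and 4 fell and 1 rose under PE. The part of non-myocytes in the values of Myl6, Myl9 and Mylk was not tested.

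The kinases moved in opposite directions with PE in siNeg. Mylk3, the cardiac light chain kinase, measured 263, 288 and 296 CPM in siNeg and 467, 506 and 580 CPM in siNeg.PE. All PE libraries were higher, and Mylk3 rose by a log2 fold change of 0.86 (SE 0.0899, adjusted p = 0.000203, edgeR's quasi-likelihood test). With the Slc25a26 siRNA it was at 314, 324 and 334 CPM without PE and at 465, 448 and 456 CPM with it. The groups were again apart, with a log2 fold change of 0.50 (SE 0.047, adjusted p = 3.13e-05) that stayed under the fold threshold. The PE effect was smaller than in siNeg by 0.38 on the log2 scale, a difference of -0.38 (SE 0.102, adjusted p = 0.0318) that also stayed under it. The siRNA gave 0.17 without PE (SE 0.0567, adjusted p = 0.035) and -0.19 under PE (SE 0.0769, adjusted p = 0.0794).

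Mylk, the kinase of smooth muscle and non-muscle cells, measured 51.6, 47.1 and 52.3 CPM in siNeg and 26.9, 26.9 and 25.4 CPM in siNeg.PE. All PE libraries lay well below all siNeg libraries, and Mylk fell by 0.94 on the log2 scale (SE 0.066, adjusted p = 3.08e-05). In siSlc25a26 it measured 35.7, 33.3 and 40.7 CPM and in siSlc25a26.PE 23.1, 24.6 and 28.6 CPM, a log2 fold change of -0.51 (SE 0.104, adjusted p = 0.00298) under the fold threshold. The groups did not overlap, and without siSlc25a26.PE replicate 3 the value passed the threshold (-0.61). The siRNA gave -0.49 without PE (SE 0.0821, adjusted p = 0.00148) and -0.063 under PE (SE 0.0957, adjusted p = 0.635), where the groups overlapped and the sign turned without siSlc25a26.PE replicate 1 (0.0040). The difference between the PE effects was 0.41 (SE 0.127, adjusted p = 0.0583). The Mylk locus makes long and short kinases and a kinase-related protein without a kinase domain, which a count per gene does not separate.

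Promoter sequence is shown for genes set against each other above, the ventricular and atrial essential light chains and both kinases. The 250 bases before the start of transcription are given 5′ to 3′ on the strand of the gene, from RefSeq on build GRCr8, which is not the build named for the deposited tables. Capitals mark matches, on either strand, to 4 motifs of muscle promoters: the CArG box bound by SRF, the MEF2 site, the M-CAT element CATTCC bound by TEAD factors and the E-box CANNTG bound by myogenic helix-loop-helix factors. They lie at chr8:119616844-119617093 on the plus strand for Myl3, chr10:89975900-89976149 on the plus strand for Myl4, chr19:37881745-37881994 on the plus strand for Mylk3 and chr11:79498575-79498824 on the minus strand for Mylk.
Myl3: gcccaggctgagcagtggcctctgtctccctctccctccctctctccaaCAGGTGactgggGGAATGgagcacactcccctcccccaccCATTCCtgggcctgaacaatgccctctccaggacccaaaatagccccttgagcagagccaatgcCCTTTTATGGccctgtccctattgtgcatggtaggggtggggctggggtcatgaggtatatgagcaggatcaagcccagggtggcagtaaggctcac
Myl4: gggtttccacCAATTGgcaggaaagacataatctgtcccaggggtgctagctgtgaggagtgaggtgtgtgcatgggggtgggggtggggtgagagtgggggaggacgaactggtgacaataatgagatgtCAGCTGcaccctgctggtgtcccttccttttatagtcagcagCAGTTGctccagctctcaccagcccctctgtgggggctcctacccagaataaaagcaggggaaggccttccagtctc
Mylk3: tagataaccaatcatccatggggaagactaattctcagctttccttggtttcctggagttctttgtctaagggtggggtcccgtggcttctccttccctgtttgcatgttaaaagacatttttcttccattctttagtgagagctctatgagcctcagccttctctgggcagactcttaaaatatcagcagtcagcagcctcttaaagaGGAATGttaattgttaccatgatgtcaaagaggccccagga
Mylk: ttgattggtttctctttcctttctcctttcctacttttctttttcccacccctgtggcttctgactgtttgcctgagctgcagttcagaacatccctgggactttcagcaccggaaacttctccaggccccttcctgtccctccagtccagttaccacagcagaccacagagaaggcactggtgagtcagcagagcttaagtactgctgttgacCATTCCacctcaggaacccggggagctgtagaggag

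In these windows Myl3 had a CArG box whose first base lay 97 bases before the start, 2 M-CAT matches and an E-box, and Myl4 had 3 E-boxes. Mylk3 and Mylk each had 1 M-CAT match and no other. Promoters were on hand for 8 of the 10 genes, without Myl2 and Myl9, 9 windows of 300 bases in all because Myl1 had 2. A CArG box was found in 1 of the 9 windows (Myl3), a MEF2 site in 1 (Myl1), M-CAT in 3 and an E-box in 6, with 0 matches overlapping. Over all 33469 rat promoter windows of the same length, 1.64% held a CArG box, 0.565% a MEF2 site, 14.2% M-CAT and 72.1% an E-box. The matches are a description of letters and were not tested against the expression values.

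The state of a regulatory light chain also depends on the phosphatase that removes the phosphate. Of 7 genes of myosin phosphatase and its inhibitors, 2 rose with PE in siNeg, the catalytic subunit Ppp1cb (log2 fold change 0.89, adjusted p = 0.000641) and the targeting subunit Ppp1r12a (0.66, adjusted p = 0.00621), and 1 fell, the inhibitor Ppp1r14a (-1.18, adjusted p = 5.65e-05). In siSlc25a26 Ppp1cb rose by 0.84 and Ppp1r14a fell by 0.86 on the log2 scale, and the other 5 were not called. With the Slc25a26 siRNA, 1 of the 7 rose without PE (Ppp1r14c, 0.71) and 0 were called under PE by edgeR, with 2 at an unadjusted p under 0.05. The medians of the 7 were 0.19, 0.41, 0.078 and 0.094 in the order PE in siNeg, PE in siSlc25a26, siRNA without PE and siRNA under PE. Those of all genes were 0.00016, -0.0036, 0.015 and -0.0028. Of all genes, 12.4% were called higher and 8.24% lower with PE in siNeg, and 10.1% and 10.4% with PE in siSlc25a26. With the siRNA, 8.92% were called higher and 7.2% lower without PE, and 7.71% and 8.1% under PE.

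Other kinases act on light chains or on the phosphatase, and 10 such genes were measured. With PE in siNeg 3 rose, Rock2 (log2 fold change 1.56, adjusted p = 0.00249) and Rock1 (1.22, adjusted p = 0.00806) and Cdc42bpa (0.91), and Pak1 fell (-0.64). With PE in siSlc25a26 4 rose (Dapk2, Dapk3, Rock1 and Rock2) and Dapk1 fell. The call of Rock1 was marginal there (0.62, SE 0.224, adjusted p = 0.0416, edgeR), and its groups overlapped. Dapk2 was low, at group means of 1.04 to 3.76 CPM. Without PE, Rock1, Rock2 and Dapk2 were higher with the Slc25a26 siRNA, by 0.73, 0.89 and 0.90 on the log2 scale, and Cit was lower. Under PE Dapk2 (1.68) and Pak1 (0.95) were higher and Cit (-0.84) was lower. Of all genes, 12.4% were called higher and 8.24% lower with PE in siNeg, and 10.1% and 10.4% with PE in siSlc25a26. With the siRNA, 8.92% were called higher and 7.2% lower without PE, and 7.71% and 8.1% under PE. Mylk and Mylk3 themselves were called in 1 of these 4 comparisons, PE in siNeg.

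**Figure D5:**
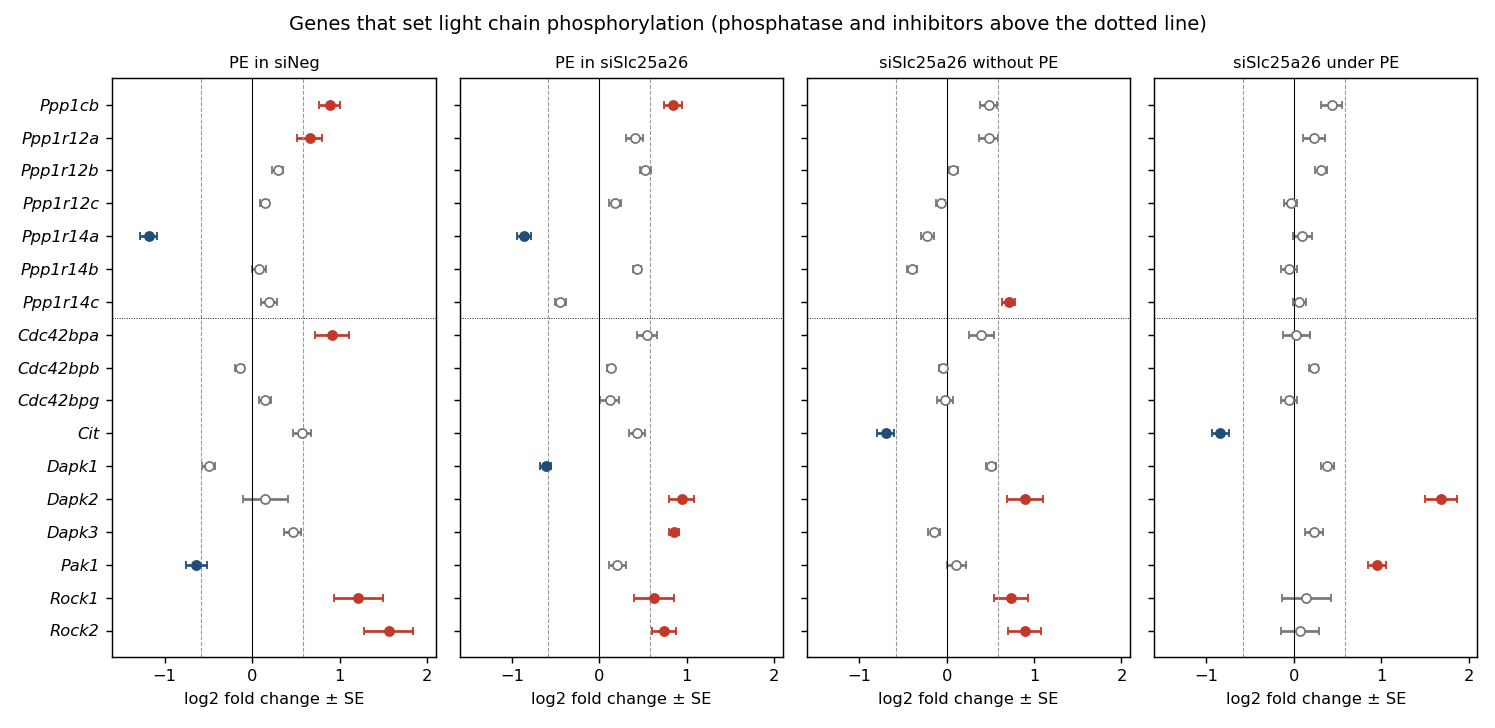
Fitted log2 fold change ± SE of the 7 genes of myosin phosphatase and its inhibitors (above the dotted line) and of 10 kinases with an input to light chain phosphorylation (below it), in the 4 comparisons of 3 against 3 libraries. Dashed lines mark a 1.5-fold change and filled points are genes called higher (red) or lower (blue): Rock1 and Rock2 are called higher in the first 3 panels, and Ppp1r14a is called lower in both PE panels. The groups of Rock1 overlap for PE in siSlc25a26.

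Among the other genes of the light chain family, 5 of 8 listed had an entry and 4 passed the filter on low counts. Myl12a, a non-muscle regulatory light chain, measured 600 to 655 CPM in siNeg, 743 to 948 in siNeg.PE, 610 to 633 in siSlc25a26 and 1229 to 1290 in siSlc25a26.PE, and rose with PE in siSlc25a26 (log2 fold change 1.04, adjusted p = 3.41e-07), while its value in siNeg was 0.42 (adjusted p = 0.00433, under the fold threshold). Its paralog Myl12b fell with PE in siSlc25a26 (-0.61, adjusted p = 2.25e-05), and the value in siNeg was -0.46 (adjusted p = 0.000252). Both are near-identical in sequence, so the authors' counting may have split reads between them and each level is uncertain. Mylpf, the fast skeletal regulatory light chain, stood near 1 CPM or below and rose with PE in siSlc25a26 (1.19, adjusted p = 0.0254). Of all genes, 10.1% were called higher and 10.4% lower with PE in siSlc25a26. In each of the other 3 comparisons edgeR called 0 of the 4 genes. At an unadjusted p under 0.05 there were 3 in the PE comparison of siNeg, and 1 and 2 in the siRNA comparisons without and under PE.

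Likeness of pattern was measured as Pearson's r of log2 CPM over the 12 libraries. The 12 libraries fall into 4 groups and share their normalization, so r mostly follows the group means and is given as a description. Among Myl1, Myl2, Myl3, Myl4, Myl6 and Myl9, r ranged from 0.714 to 0.966 over the 15 pairs. The remaining light chain, Myl7, did not share this pattern, with r from -0.477 (Myl2) to 0.213 (Myl6) against these genes. Mylk and Mylk3 had r = -0.908. The gene most like Myl1 was Pitpna (r = 0.976), that most like Myl2 was Avpi1 (0.995) and that most like Myl3 was RGD1562987 (0.987). Egln3 followed Myl4 (0.993), Eef1d followed Myl6 (0.988), Cyth2 followed Myl7 (0.984) and Ogdh followed Myl9 (0.985). For the kinases, Adamts1, which encodes a secreted protease, was most like Mylk (0.985), with Prelp (0.980) and Gpc4 (0.978) next, and Cavin2 was most like Mylk3 (0.981).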

How the data were processed

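The authors deposited estimated counts for each gene and, in a second table, FPKM values (scaled for transcript length and depth) of the 12 libraries. Per the labels' processing notes, HISAT, Bowtie2 and the build Rnor_6.0 were used, and the counting program and strandedness are not given in the sources used here. Between 20.8 and 21.9% of the values were not whole, so counts were rounded. The design had assumed plain counts. Each comparison was fitted on its own 6 libraries with edgeR 4.0.16 (R 4.3.3, TMM factors, filterByExpr and the quasi-likelihood F-test), and the difference between PE effects on all 12, with Benjamini-Hochberg adjustment over all genes tested. Calls needed a change of more than 1.5-fold with adjusted p under 0.05. CPM are scaled by TMM factors over the 12 libraries. Named genes were the 10 listed, Slc25a26, the genes of fixed lists where they carry a count, and the genes most like each by correlation (the nearest 3, of log2 CPM with a prior count of 2, of which mostly the first is printed).

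The genes and lists were chosen with earlier results of these data known, and the interferon list after their values were seen. The fits were tested on simulated data. Replicates differed by more than sampling noise (chi-square per gene at least 5.52). Alternatives were DESeq2 1.42.0, limma 3.58.1 (voom, and log2 of FPKM plus 1 or 0.1), DESeq2's size factors in edgeR, no filter, 10 counts in every library, a replicate block, all 12 libraries in 1 fit, no fold threshold, shares of counts, and each library left out. The paper that names these data describes another siRNA and other times, so groups follow the labels. The CPM given for 3 counts covers counting error only. Of the list of inputs to light chain phosphorylation, only the kinases are reported here.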

Additional observations from a re-analysis of the deposited data

Results flagged for a closer look

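For 3 of the 9 genes the PE effect differed between the siRNAs in the interaction test over 12 libraries (siSlc25a26 minus siNeg, log2 scale, edgeR's quasi-likelihood test, all genes adjusted together). At an adjusted p under 0.05 and any fold, 5.48% of all 14097 genes tested were higher and 5.73% lower. The difference was 0.76 for Myl9 (adjusted p = 0.00218), 0.35 for Myl2 (adjusted p = 0.0445) and -0.38 for Mylk3 (adjusted p = 0.0318), and only the first passed the fold threshold. Among the genes listed with them it was 0.59 for Myl12a (adjusted p = 0.00392), 0.82 for Pak1 (adjusted p = 0.0031) and -0.66 for Ppp1r14c (adjusted p = 0.0039). Of 9 heavy chains tested, 2 were called in the direction of Myl9, the non-muscle chains Myh9 by 0.81 (adjusted p = 0.0183) and Myh10 by 0.73 (adjusted p = 0.000433). Myh14, also a non-muscle heavy chain, was not called, with PE effects of -0.14 in siNeg and -0.040 in siSlc25a26. Also called in the direction of Myl9 were 5 of 16 smooth muscle genes, with 0.88 for Acta2 (adjusted p = 0.00233), 1.75 for Cnn1 (adjusted p = 6.75e-05), 0.63 for Cnn2 (adjusted p = 0.00984), 0.96 for Tpm2 (adjusted p = 0.000278) and 0.59 for Notch3 (adjusted p = 0.0279). Past both thresholds, 2.16% of all genes were called in that direction. Slc25a26 itself was lower with its siRNA only without PE. Of the 12 interferon-stimulated genes, 11 of 11 tested were called higher with that siRNA without PE and 11 of 12 under PE. Of all genes, 8.92% were called higher without PE and 7.71% under PE. The part of Slc25a26 or of the interferon-stimulated genes in these differences was not tested.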

How the results depend on the processing

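Across the other settings, 416 of 437 values of the 9 genes kept their direction and their side of the thresholds, 7 lost a call, 14 gained a call and 0 reversed. With 1 library left out, 312 of 324 kept both, 7 lost a call, 4 gained a call (Myl9 with PE in siNeg in 3 cases, and Mylk with PE in siSlc25a26) and 1 reversed, Mylk with the siRNA under PE (-0.15 to 0.0040). With no fold threshold, the counts called were 6 higher and 2 lower for PE in siNeg, and 7 higher and 2 lower for PE in siSlc25a26. They were 1 higher and 7 lower for the siRNA without PE, and 0 higher and 3 lower under PE. For the difference between PE effects they were 2 higher and 1 lower. Removing the threshold can only keep or raise these counts. With limma on log2(FPKM + 0.1), 2 were lower for PE in siSlc25a26. With 1 library left out, the counts ranged from 0 to 1 lower for PE in siSlc25a26 (0 without siSlc25a26.PE replicate 2 or siSlc25a26 replicate 3) and from 1 to 2 lower for the siRNA under PE (1 without siNeg.PE replicate 1). The share of Myl4 was higher with PE in siNeg by 2.43 points when taken from counts and by 2.77 points from FPKM. Taken from counts, which do not use the transcript length, the share of Myl7 was 4.47 to 5.54% in siNeg and 2.12 to 2.25% in siNeg.PE. It was 3.66 to 4.37% in siSlc25a26 and 0.993 to 1.25% in siSlc25a26.PE, again without overlap between groups.

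The replicate numbers did not pair the libraries throughout, and partial pairing is not excluded. For this check the group mean of each gene was subtracted from its log2 CPM, so that only differences between replicates were left. These remainders correlated at -0.091 to 0.217 between same-numbered libraries, and not every pair passed 0.1 in any comparison. The own number gave the highest correlation in 2 cases for PE in siNeg and 2 for the siRNA under PE. It did so in 1 case for the siRNA without PE and 0 for PE in siSlc25a26. With the replicate block all 45 values of the 9 genes kept their direction and side, and Myl9 had 0.57 for PE in siNeg. Over all genes the block moved the difference between PE effects from 471 to 619 lower calls and from 305 to 326 higher.

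Counts over all genes that moved by more than 1.5 times did so on FPKM, without siNeg.PE replicate 3, or with no fold threshold. With log2(FPKM + 1), PE in siNeg gave 857 higher and 733 lower in place of 1708 and 1130, PE in siSlc25a26 564 higher in place of 1389, the siRNA without PE 452 lower in place of 996, the siRNA under PE 623 higher in place of 1054, and the difference 164 higher in place of 305. With log2(FPKM + 0.1), PE in siSlc25a26 gave 824 higher and 2214 lower in place of 1389 and 1436, and the difference 768 lower in place of 471. FPKM shifted the median of all genes by -0.13 to -0.17 in PE in siSlc25a26, and Myl3 and Myl6 lost their calls there. Without siNeg.PE replicate 3 the difference had 301 lower. With no fold threshold the counts were 3456 and 3329, 3634 and 3585, 3223 and 2998, 2744 and 2744, and 773 and 808 higher and lower in the order of the comparisons. Depth limits Myl1 most, at 5 to 26 counts in each library without PE. The fits on FPKM took no TMM factors, unlike those on counts. These factors were 1.04 to 1.05 in siSlc25a26 and 0.923 to 0.947 in siSlc25a26.PE. The part of this scaling in the changes on FPKM was not tested apart from that of the unit.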

Other observations

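The heavy chains that carry these light chains, and genes of the heart's chambers, were measured from lists fixed with earlier results known. Of 9 myosin heavy chain genes tested with PE in siNeg, Myh7, the slow ventricular heavy chain, rose (log2 fold change 0.88, adjusted p = 2.46e-05, edgeR's quasi-likelihood test), and Myh1, Myh9 and Myh11 fell. Myh1 was near the floor, at means of 1.87 CPM in siNeg, 0.079 in siNeg.PE and 0.41 in siSlc25a26. It was too low to be tested with PE in siSlc25a26 or with the siRNA under PE. Myh9, a non-muscle heavy chain that Myl6 and Myl9 bind, had -0.77 (adjusted p = 0.00227) with PE in siNeg, where Myl9 had 0.57 and Myl6 0.22. In siSlc25a26 Myh7 rose with PE by 1.00 (adjusted p = 3.27e-06), and edgeR called 0 of the 8 tested lower, with 1 at an unadjusted p under 0.05. With the Slc25a26 siRNA 5 of 9 fell without PE (Myh1, Myh6, Myh9, Myh10 and Myh11), and 1 of 8 fell under PE, Myh11. Of all genes, 12.4% were called higher and 8.24% lower with PE in siNeg, and 10.1% and 10.4% with PE in siSlc25a26. Called lower with the siRNA were 7.2% of all genes without PE and 8.1% under PE. Myh6 and Myh7 are close paralogs, so their counts may share reads.

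Of 12 atrial genes tested, 2 rose and 4 fell with PE in siNeg, and 1 rose and 4 fell with PE in siSlc25a26. With the siRNA 4 rose without PE, and 1 rose and 1 fell under PE. Of 9 ventricular genes, 2 rose and 2 fell with PE in siNeg, and 1 rose and 5 fell in siSlc25a26. Of 7 skeletal muscle genes tested beside Myl1, 2 rose and 1 fell with PE in siNeg, and 3 rose and 1 fell in siSlc25a26. The shares of all genes called higher and lower were 12.4% and 8.24% with PE in siNeg, and 10.1% and 10.4% with PE in siSlc25a26. With the siRNA they were 8.92% and 7.2% without PE, and 7.71% and 8.1% under PE.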
